A study of Homo sapiens with 12 samples.

Results

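PCAT1, SCHLAP1, PCGEM1, PCA3, DRAIC, ARLNC1, PCAT6 and PCAT7 are 8 long non-coding RNAs (lncRNAs) that are known from prostate cancer. They were found in the expression table by their Ensembl gene identifiers, and 7 of the 8 had a row among 63568 genes. No row carried the identifier of SCHLAP1 (ENSG00000281131), so SCHLAP1 was not analysed here. The 12 libraries came from LNCaP cells, an androgen-sensitive prostate cancer line derived from a lymph node metastasis. Control cells were transfected with a non-targeting siRNA (si-NT), and BRG1 depleted cells with 1 of 2 siRNAs against SMARCA4, the gene that encodes BRG1. RNA was collected 72 h or 144 h after the first transfection, in duplicate for each siRNA, which gave 2 si-NT and 4 BRG1 depleted libraries at each time. The siRNAs are named here by the numbers 2 and 3 that the expression table gives them, since the sample labels number them 1 and 2. At 72 h the cells kept for 144 h were split and transfected with siRNA again, so the times also differ by this step. All groups share a single cell line, and no source says whether duplicates were separate cultures, so p-values measure the spread between these libraries.

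BRG1 is an ATPase of the SWI/SNF complex, which moves nucleosomes and so changes the accessibility of promoters and enhancers. lncRNAs are transcribed and often spliced and polyadenylated like mRNAs but encode no known protein, and many are made in few tissues. Prostate cancers express several at high levels, some of them in response to androgen. PCAT1 has been described as a promoter of proliferation and a repressor of BRCA2. PCGEM1 and ARLNC1 have been linked to androgen signalling, and PCA3 is measured in urine as a marker of prostate cancer. DRAIC has been described as an inhibitor of invasion and of the IKK kinases that activate NF-kB. SCHLAP1 has been described as an antagonist of SWI/SNF through its subunit SMARCB1. PCAT6 is also called KDM5B-AS1, after its neighbour.

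After BRG1 depletion PCAT1 and DRAIC fell at both times, PCAT6 rose at 144 h, and PCAT7 passed the test at neither time. PCGEM1, PCA3 and ARLNC1 were under 1 TPM (a level corrected for transcript length and scaled to the same total in each library) in every library and were not fitted. On the TPM scale PCAT1 fell by 80.5% at 72 h and by 89.2% at 144 h, and DRAIC fell by 41.5% and by 67.4%. The PCAT6 level in BRG1 depleted cells was 1.99 times the si-NT level at 144 h. The DRAIC call at 72 h and the PCAT6 call at 144 h each depended on the processing, as given with their values. The PCAT1 call at 72 h was lost in 1 of 21 alternatives.

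In genome build GRCh37, with gene limits from GENCODE v44 lifted to that build, DRAIC (ENSG00000245750.3) lies at chr15:69755260-70135459 on the plus strand. PCAT6 (ENSG00000228288.2) lies at chr1:202779978-202781601, plus strand, and PCAT7 (ENSG00000231806.2) at chr9:97317336-97366272, plus strand. PCGEM1 (ENSG00000227418.2) lies at chr2:193614571-193641625, plus strand, PCA3 (ENSG00000225937.1) at chr9:79306896-79478223, plus strand, and ARLNC1 (ENSG00000260896.1) at chr16:80859971-80926579, minus strand. These limits come from a later release than the GENCODE v19 models that the study counted on, so the counted exons may span less.

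Promoter windows of DRAIC and PCAT6, 2 members that changed, are shown because FOXA1, a forkhead factor named with BRG1 in this study, has known short recognition letters. RefSeq promoter entries (GRCh38.p14, 250 bases before and 50 after a transcription start) existed for 5 of the 8 members and held none for PCAT1, ARLNC1 or SCHLAP1. Both strands were searched for the forkhead letters TGTTTAC and TGTTTGC, and capitals mark the matches, none of which overlapped. The DRAIC window is chr15:69561470-69561769, and the PCAT6 window chr1:202810704-202811003, both on the plus strand. In GRCh37 the start in the DRAIC window lies 98799 bases inside the gene limits given above and is 1 of many, as the annotation lists 69 transcription starts for DRAIC. The start in the PCAT6 window lies 104 bases inside its limits, with 5 starts listed.
DRAIC: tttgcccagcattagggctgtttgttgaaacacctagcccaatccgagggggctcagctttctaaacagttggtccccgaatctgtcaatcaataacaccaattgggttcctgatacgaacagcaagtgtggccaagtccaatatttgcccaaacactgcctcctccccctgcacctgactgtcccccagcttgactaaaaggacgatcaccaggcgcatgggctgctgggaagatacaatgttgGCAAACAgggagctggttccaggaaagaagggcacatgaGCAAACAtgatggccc
PCAT6: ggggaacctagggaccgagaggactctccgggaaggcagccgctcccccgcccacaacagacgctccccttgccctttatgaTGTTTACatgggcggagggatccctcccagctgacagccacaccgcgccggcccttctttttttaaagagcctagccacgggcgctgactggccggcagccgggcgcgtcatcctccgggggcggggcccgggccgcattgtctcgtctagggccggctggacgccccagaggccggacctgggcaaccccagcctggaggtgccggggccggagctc

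The DRAIC window held TGTTTGC 2 times, read on the minus strand, at positions -5 and 34 counted from the first transcribed base as 0. TGTTTGC was present in 3.89% of 35116 RefSeq promoters of the same length. The PCAT6 window held TGTTTAC once, at position -168, and 3.42% of promoters held it. Neither motif was found in the windows of PCAT7 (chr9:94554349-94554648 and chr9:94554833-94555132), PCGEM1 (chr2:192749595-192749894) or PCA3. The windows also differed in base composition. PCAT6 had 69.7% GC and 25 CG dinucleotides, DRAIC had 52% GC and 5, and PCGEM1 had 38% GC and 0, against medians of 58.7% and 14 over all promoters. The PCAT7 windows had 60% GC and 11, and 44% GC and 8, and those of PCA3 had 40.7% GC and 3. A match describes letters only, and binding was not measured in these libraries.

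Across the whole table, SMARCA4 was 73.4 to 107 TPM in si-NT libraries, 17.5 to 21.7 TPM in BRG1 depleted libraries at 72 h and 11.4 to 17.4 TPM at 144 h. The number of genes at 1 TPM or more was 14706 to 15355 per library. TPM keeps no read depth, so no counting error can be given for any value. All 6 luminal prostate markers reached 1 TPM, with a summed level of 1398 to 1892 TPM, and none of 3 basal and none of 3 leukocyte markers did. Of 4 neuroendocrine markers only SYP reached 1 TPM, in BRG1 depleted libraries alone. The 4 markers summed to 0.39 to 0.76 TPM in si-NT and 0.96 to 1.47 TPM in BRG1 depleted libraries, with INSM1 at 0 throughout. Of 4 fibroblast markers only COL1A1 reached 1 TPM, and their summed level was 6.05 to 8.06 TPM in si-NT and 3.1 to 9.13 TPM in BRG1 depleted libraries. In the limma fit given below, only KRT8 and SYP of the fitted markers were called, both higher at 144 h. Their log2 fold changes were 0.56 and 0.66 (limma adjusted p = 0.00109 and 0.00753), where 13.6% of all genes were called higher. SYP entered the fit only through BRG1 depleted libraries. The part of these markers in the results was not tested. In bulk RNA, fewer cells that express a gene and less of its RNA per cell cannot be told apart.

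Fold changes were fitted with limma on log2(TPM + 1) over 16337 genes that reached 1 TPM in at least 2 libraries, with Benjamini-Hochberg adjustment over all of them. This scale understates the change of genes at a few TPM. Of the 8 members, 4 passed the filter, and PCAT1 did so only through its si-NT libraries. At 72 h, 2 members were called lower at an adjusted p under 0.05 and none higher, where 0.557% of all genes were called lower and 1.13% higher. At 144 h, 2 members were called lower and 1 higher, where 10.8% of all genes were called lower and 13.6% higher. The median log2 fold change of the 4 fitted members was -0.27 at 72 h and -0.78 at 144 h, beside 0.06 and 0.03 over all genes and 0.07 and 0.04 over 1552 lncRNA genes. With the added limit of a log2 fold change beyond 1.5, only PCAT1 was called, at each time, where 0.11% of genes at 72 h and 0.404% at 144 h were called lower and 0.0551% and 0.698% higher.

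PCAT1 (ENSG00000253438.2) spans chr8:127568568-128431295 on the plus strand in the same annotation. It was at 3.85 and 4.14 TPM in si-NT libraries at 72 h. With siRNA 2 it was at 0.49 and 0.69 TPM at 72 h, and with siRNA 3 at 1.12 and 0.81 TPM. At 144 h it was at 6.71 and 4.96 TPM in si-NT libraries, at 0.60 and 0.43 TPM with siRNA 2 and at 0.69 and 0.79 TPM with siRNA 3. Every BRG1 depleted library was therefore below every si-NT library, and only 1 of the 8 remained above 1 TPM. Of all fitted genes, 4.43% at 72 h and 12.7% at 144 h lay below the 4 si-NT libraries in this way. The share that did so at both times was not calculated. PCAT1 changed on the log2 scale by -1.502 ± 0.18 (SE) at 72 h (limma adjusted p = 0.0029) and by -2.06 ± 0.18 at 144 h (limma adjusted p = 4.1e-05). At 72 h the value lay close to the limit of 1.5, and it no longer passed without si-NT replicate 2, siRNA 2 replicate 1 or siRNA 2 replicate 2 of that time, with values up to -1.42, which left 0 members past the limit. Fitted on the 6 libraries of 72 h alone, PCAT1 had an adjusted p of 0.0574. Among the 1552 lncRNA genes fitted, PCAT1 had the third lowest log2 fold change at 72 h and ranked 4 from the lowest at 144 h.

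DRAIC was the most abundant of the 7 members with a row in control cells, at 19.9 and 20.2 TPM in si-NT libraries at 72 h and 22.1 and 19.7 TPM at 144 h. At 72 h it was at 10.4 and 11.9 TPM with siRNA 2 and at 14.5 and 10.1 TPM with siRNA 3. At 144 h it was at 7.36 and 7.63 TPM with siRNA 2 and at 6.90 and 5.41 TPM with siRNA 3. All 8 BRG1 depleted libraries lay below the 4 si-NT libraries, where 4.43% of fitted genes did so at 72 h and 12.7% at 144 h. Among the 8, all 4 of 144 h lay below the 4 of 72 h. The share of all genes that separated the times in this way was not calculated. The fitted log2 fold change for DRAIC was -0.74 ± 0.16 at 72 h (limma adjusted p = 0.0391) and -1.49 ± 0.16 at 144 h (limma adjusted p = 0.000137). The call at 72 h was lost in 13 of 21 alternatives, with adjusted p between 0.00353 and 0.738 over all 21, among them leaving out 72 h si-NT replicate 1 (0.174) or replicate 2 (0.202). Leaving out siRNA 2 replicate 1, siRNA 2 replicate 2 or siRNA 3 replicate 2 of 72 h also ended it (0.0829, 0.0711 and 0.0983), as did 144 h si-NT replicate 1, si-NT replicate 2, siRNA 2 replicate 1 or siRNA 3 replicate 1 (0.0643, 0.0647, 0.055 and 0.0617). The direction was the same in each, and the call at 144 h held in all 21.

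PCAT6 was at 4.36 and 7.55 TPM in the si-NT libraries at 72 h, which lie further apart than the means of the groups at that time. BRG1 depleted libraries at 72 h had 6.50 and 8.89 TPM with siRNA 2 and 8.30 and 7.56 TPM with siRNA 3. At 144 h PCAT6 was at 5.02 and 3.71 TPM in si-NT libraries, at 8.27 and 10.4 TPM with siRNA 2 and at 7.19 and 8.75 TPM with siRNA 3. The groups overlapped at 72 h and did not overlap at 144 h, as for 26.1% of all genes that were higher against the 2 si-NT libraries of that time, although 1 BRG1 depleted library of 144 h lay below the higher si-NT library of 72 h. The fitted log2 fold change for PCAT6 was 0.37 ± 0.20 at 72 h (limma adjusted p = 0.444) and 0.85 ± 0.20 at 144 h (limma adjusted p = 0.0111). The value at 72 h was 0.036 without si-NT replicate 1 and 0.71 without si-NT replicate 2 of that time. Without 144 h si-NT replicate 2 it was 0.67 at 144 h, with an adjusted p of 0.144. Scaled to the ERCC spike-in RNAs in place of TPM totals it was 0.50, with an adjusted p of 0.381, so that no member was called higher. Under this scaling the median over the 16337 genes shifted to -0.11 (72 h) and -0.31 (144 h) in log2 units. Relative to that median the PCAT6 value was 0.81.

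PCAT7 was at 3.14 and 3.62 TPM in si-NT libraries at 72 h, at 3.43 and 4.53 TPM with siRNA 2 and at 4.04 and 4.10 TPM with siRNA 3. At 144 h it was at 3.68 and 3.19 TPM in si-NT libraries, at 3.16 and 3.72 TPM with siRNA 2 and at 2.66 and 3.56 TPM with siRNA 3. The groups overlapped at both times. The fitted log2 fold change for PCAT7 was 0.20 ± 0.14 at 72 h (limma adjusted p = 0.592) and -0.06 ± 0.14 at 144 h (limma adjusted p = 0.806), and the sign at 144 h turned without si-NT replicate 1 (0.02) or siRNA 3 replicate 1 (0.01).

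**Figure D1:**
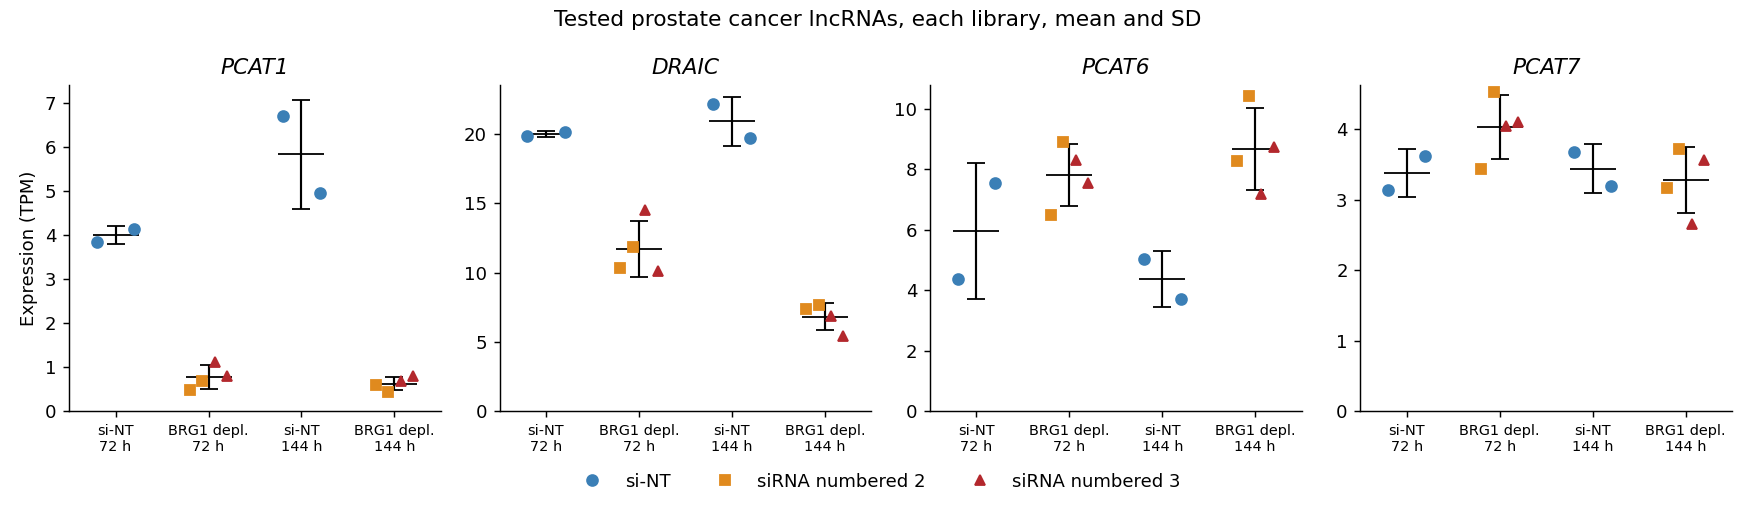
TPM of the 4 fitted lncRNAs in each of the 12 libraries by group (points, coloured by siRNA), with the group mean and SD (horizontal line and bars). PCAT1 was 3.85 to 6.71 TPM in si-NT and 0.43 to 1.12 TPM in BRG1 depleted libraries, DRAIC was lowest at 144 h after depletion, and the PCAT7 groups overlapped.

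The remaining members were near the lower end of the scale. PCGEM1 was above 0 in 3 of 4 si-NT libraries, at 0.06, 0.02 and 0.10 TPM, and was listed at 0 in the other si-NT library and in all 8 BRG1 depleted libraries. PCA3 did not exceed 0.04 TPM in any library and was listed at 0 in 5 of the 12. ARLNC1 was above 0 in all 12, at 0.06 to 0.19 TPM in si-NT, 0.02 to 0.09 TPM in BRG1 depleted cells at 72 h and 0.04 to 0.30 TPM at 144 h. These levels are too low for a fold change to be read.

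**Figure D2:**
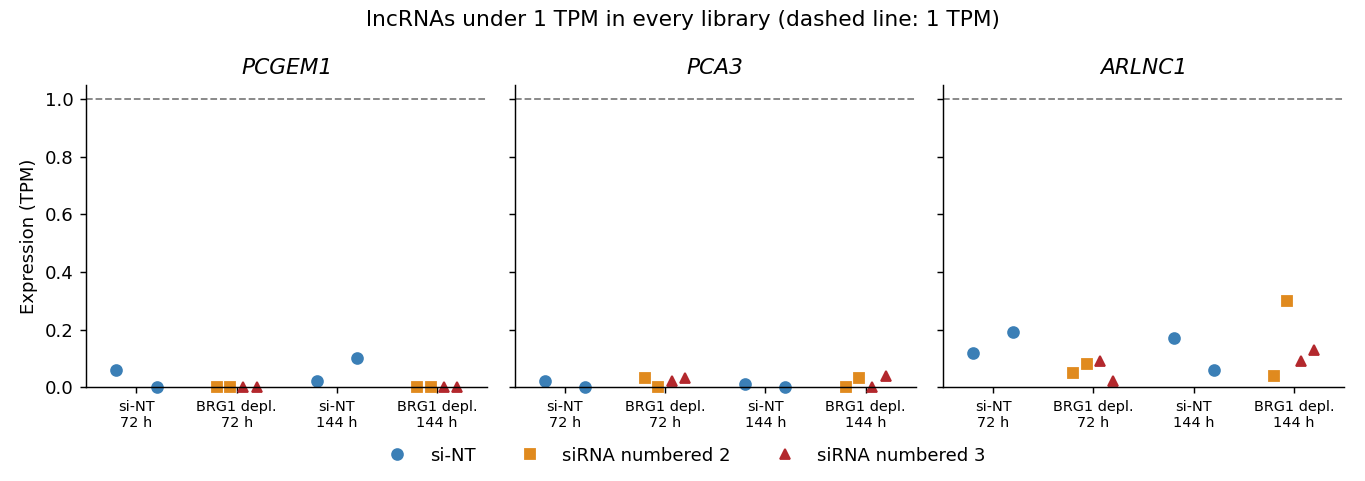
TPM of PCGEM1, PCA3 and ARLNC1 in each of the 12 libraries by group (points, coloured by siRNA), with a dashed line at 1 TPM. All values lie well under the line, the highest being 0.30 TPM for ARLNC1, and the BRG1 depleted points of PCGEM1 all lie at 0.

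A test of single members compared the 4 BRG1 depleted libraries of each time with the si-NT libraries of both times pooled. The tests of the times thus have the same 4 controls. This test assumes no form of distribution, but it treats the libraries as exchangeable where there is no effect. The depleted libraries are 2 siRNAs in duplicate, and 2 of the 4 controls come from the other time, so this need not hold. In this two-sided exact permutation test on TPM, PCAT1 and DRAIC each gave p = 0.0286 at both times, the smallest value the design allows. PCAT6 gave an exact p of 0.0571 at both times, PCAT7 gave 0.0857 and 0.657, and ARLNC1 gave 0.0857 and 0.971. PCGEM1 gave an exact p of 0.143 at both times, and PCA3 gave 0.314 and 0.543. Each time has its own 2 si-NT libraries, and against those alone the smallest possible exact p is 0.133. Over all fitted genes, 4.43% were lower without overlap in the 4 BRG1 depleted libraries of 72 h, and 12.7% in those of 144 h, and 11.5% and 17.2% were higher without overlap.

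The siRNAs gave like values. With siRNA 2 the PCAT1 log2 fold change was -1.65 at 72 h and -2.16 at 144 h, and with siRNA 3 it was -1.35 and -1.96, each ± 0.19. For DRAIC the values were -0.80 and -1.36 with siRNA 2 and -0.68 and -1.62 with siRNA 3, each ± 0.17. For PCAT6 they were 0.35 and 0.95 with siRNA 2 and 0.40 and 0.75 with siRNA 3, each ± 0.24. Taken alone, neither siRNA passed for DRAIC at 72 h (limma adjusted p = 0.0539 with siRNA 2 and 0.125 with siRNA 3). For PCAT6 at 144 h siRNA 2 passed (0.024) and siRNA 3 did not (0.0581). PCAT1 at both times and DRAIC at 144 h passed with each siRNA. The difference between siRNA 3 and siRNA 2 was tested in a fit of 6 groups and passed for none of the 4 members (limma adjusted p from 0.551 to 0.981), where 0.141% of genes at 72 h and 0.331% at 144 h were called. The widest difference was that of PCAT1 at 72 h, where siRNA 3 was higher by 0.30 ± 0.19 on the log2 scale.

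**Figure D3:**
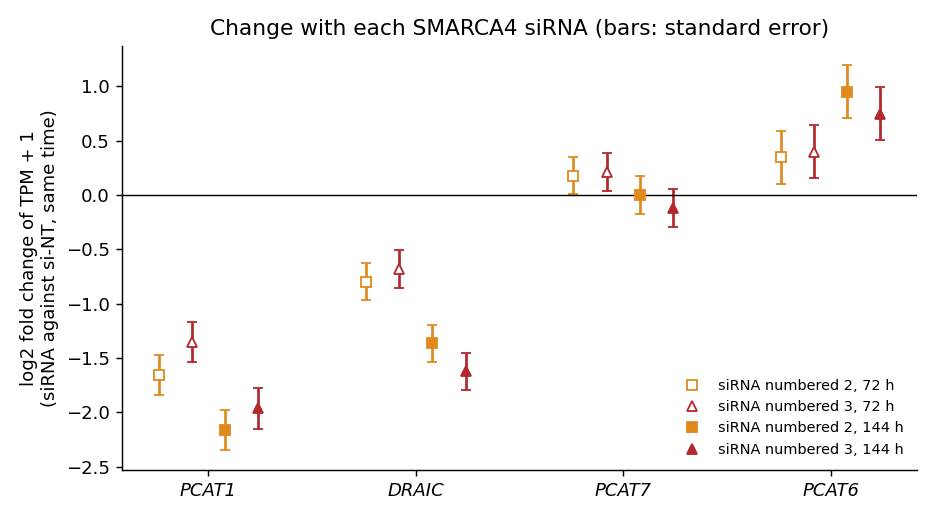
log2 fold change of TPM + 1 against si-NT of the same time for the 4 fitted lncRNAs, by siRNA (squares and triangles) and time (open, 72 h, and filled, 144 h), with bars for the standard error. Both siRNAs lie below 0 for PCAT1 and DRAIC at both times, and PCAT7 lies near 0.

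The change between the times was tested as the difference of the fold changes. It was -0.56 ± 0.25 for PCAT1 (limma adjusted p = 0.412) and -0.75 ± 0.22 for DRAIC (limma adjusted p = 0.277). It was 0.48 ± 0.28 for PCAT6 (adjusted p = 0.522) and -0.25 ± 0.20 for PCAT7 (adjusted p = 0.642) in the same fit. By limma 0 of the 4 passed after adjustment, where 0.0184% of all genes passed, and 2 had an unadjusted p under 0.05, as did 11.9% of all genes. Between the si-NT groups 0 of the 4 members and 0% of all genes passed (limma adjusted p from 0.974 to 1, with 0 at an unadjusted p under 0.05, as were 4.11% of all genes), and the log2 difference of 144 h from 72 h was 0.44 ± 0.20 for PCAT1 and -0.35 ± 0.23 for PCAT6.

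The order of the levels changed with depletion. Over the 4 si-NT libraries DRAIC was highest at 20.4 ± 1.15 TPM (SD, n = 4), followed by PCAT6 at 5.16 ± 1.68, PCAT1 at 4.92 ± 1.29, PCAT7 at 3.41 ± 0.28 and ARLNC1 at 0.135 ± 0.058 TPM. PCAT6 and PCAT1 overlapped in range, while DRAIC and PCAT7 overlapped with neither. PCGEM1 and PCA3 came last, and their ranges overlapped. At 144 h in BRG1 depleted cells PCAT6 came first at 8.66 ± 1.35 TPM (SD, n = 4), overlapping DRAIC at 6.83 ± 0.99 TPM, and PCAT1 at 0.628 ± 0.153 TPM came after PCAT7 at 3.28 ± 0.47 TPM. Ratios within each library involve no scaling between libraries. The ratio of PCAT6 to DRAIC was 0.189 to 0.375 in si-NT, 0.572 to 0.75 at 72 h and 1.04 to 1.62 at 144 h after depletion. These 3 ranges did not overlap, but the fitted changes of PCAT6 and DRAIC had opposite signs. How many other pairs of genes give ratios without overlap was not calculated. The ratio of DRAIC to PCAT1 was 3.3 to 5.16 in si-NT and 6.85 to 21.1 in BRG1 depleted libraries. Among 12818 lncRNA genes in the table DRAIC ranked 75 by mean si-NT level, PCAT6 350, PCAT1 360 and PCAT7 505.

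Of 27 other lncRNAs known from prostate or other cancers, 12 were fitted, 10 did not pass the filter and 5 had no row that could be matched. At 72 h 2 were called higher and 0 lower, where 1.13% and 0.557% of all genes were. Of the 12, 7 had an unadjusted limma p under 0.05 at 72 h, as did 14.3% of all genes. At 144 h 4 were called higher and 4 lower, where 13.6% and 10.8% of all genes were. The median log2 fold change of the 12 was 0.10 and -0.21. SOCS2-AS1, an androgen-responsive antisense RNA, was at 0.02 to 0.29 TPM in si-NT, 1.24 to 3.33 TPM at 72 h and 3.81 to 7.51 TPM at 144 h after depletion. SOCS2-AS1 increased on the log2 scale by 1.34 ± 0.26 at 72 h (limma adjusted p = 0.0318) and by 2.54 ± 0.26 at 144 h (limma adjusted p = 0.000134), and it passed the filter only through its BRG1 depleted libraries. DANCR, which is the host of a small nucleolar RNA, fell by 0.87 on the log2 scale at 144 h (limma adjusted p = 0.00257). These 2 calls at 144 h held in all 21 alternatives.

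The other calls among these lncRNAs were each lost under some alternatives. CBR3-AS1, also known as PlncRNA-1, rose by 0.62 on the log2 scale at 72 h (limma adjusted p = 0.0339) and by 0.57 at 144 h (0.00789). On the log2 scale CTBP1-DT, transcribed divergently from CTBP1, rose by 0.60 and MALAT1, an abundant nuclear RNA, by 0.50 at 144 h (limma adjusted p = 0.00625 and 0.0277). All 3 calls at 144 h were lost with ERCC scaling, which left 1 of the 4 higher calls, and without 144 h si-NT replicate 2 (adjusted p = 0.101, 0.11 and 0.341), and MALAT1 also without siRNA 2 replicate 1 (0.0536). With ERCC scaling their values relative to the shifted median were 0.50, 0.52 and 0.42. On the log2 scale H19, an imprinted RNA, fell by 0.90, SNHG1, a snoRNA host, fell by 0.88, and PVT1, transcribed beside MYC, fell by 0.67 at 144 h (limma adjusted p = 0.014, 0.00859 and 0.0413). H19 reached 1 TPM in all 4 si-NT libraries and in 1 of the 8 BRG1 depleted libraries, so it passed the filter only through its si-NT libraries. Without 144 h si-NT replicate 1 these had adjusted p of 0.124, 0.0931 and 0.192, and without replicate 2 H19 had 0.0643 and PVT1 0.16. Leaving out siRNA 2 replicate 1 or 2 of 144 h (0.0774 and 0.0798) or 72 h si-NT replicate 1 or 2 (0.0519 and 0.0521) also ended the PVT1 call. In all, the PVT1 call was lost in 11 of 21 alternatives. The PVT1 log2 fold change at 144 h was -0.95 with siRNA 2 and -0.40 with siRNA 3 (limma adjusted p = 0.121 for the difference between the siRNAs). At 72 h the SOCS2-AS1 call was lost in 11 and the CBR3-AS1 call in 13 of 21 alternatives, among them leaving out 72 h si-NT replicate 1 (0.146 and 0.238) or replicate 2 (0.172 and 0.0735). The SOCS2-AS1 call at 72 h was also lost without siRNA 2 replicate 2, siRNA 3 replicate 1 or siRNA 3 replicate 2 of 72 h, or si-NT replicate 1, si-NT replicate 2 or siRNA 3 replicate 1 of 144 h (adjusted p from 0.0506 to 0.0706). The CBR3-AS1 call at 72 h was lost without any 1 of the 4 BRG1 depleted libraries of 72 h or the same 3 libraries of 144 h (adjusted p from 0.0548 to 0.0785).

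Of 17 partners and targets described for the members, 16 were fitted. None was called at 72 h by limma (1 at an unadjusted p under 0.05, as were 14.3% of all genes). At 144 h 3 were called lower and 0 higher, where 10.8% and 13.6% of all genes were. An unadjusted limma p under 0.05 was found for 6 of the 16 at 144 h, and for 36.8% of all genes. BRCA2, the repair gene described as repressed by PCAT1, fell as PCAT1 did, by 0.85 on the log2 scale at 144 h (limma adjusted p = 0.0389). A link between their changes was not tested. The BRCA2 value was -0.53 with siRNA 2 and -1.18 with siRNA 3 (limma adjusted p = 0.138 and 0.00985). EZH2, the methyltransferase of the Polycomb repressive complex, fell by 0.71 on the log2 scale (limma adjusted p = 0.00621), and KDM1A, a histone demethylase, fell by 0.65 on the log2 scale (limma adjusted p = 0.00209). The KDM1A call held in all 21 alternatives, whereas the EZH2 and BRCA2 calls were lost with ERCC scaling (adjusted p = 0.0559 and 0.0679), under which their log2 fold changes were -1.09 and -1.19, or -0.78 and -0.87 relative to the shifted median. BRCA2 lost its call in 7 alternatives, among them without 144 h si-NT replicate 1 (adjusted p = 0.158), si-NT replicate 2 (0.182), siRNA 3 replicate 1 (0.0635) or siRNA 3 replicate 2 (0.0515). EZH2 lost it without 144 h si-NT replicate 2 (0.0727).

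FOXA1, the forkhead pioneer factor, had log2 fold changes of 0.17 ± 0.12 and -0.01 ± 0.12 (limma adjusted p = 0.597 and 0.966), and the sign at 144 h turned under some alternatives. SMARCB1, the SWI/SNF subunit described with SCHLAP1, had log2 fold changes of -0.08 ± 0.08 and -0.24 ± 0.08 (limma adjusted p = 0.755 and 0.0612), and passed at 144 h in 4 alternatives, among them without 144 h siRNA 2 replicate 2 (0.0228). FOXA1 levels overlapped between the groups at both times, and SMARCB1 levels at 72 h.

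Of 22 protein-coding genes that overlap or flank the 8 members, 17 were fitted. At 72 h 2 were called lower and 0 higher, where 0.557% and 1.13% of all genes were. At 144 h 2 were called lower and 4 higher, where 10.8% and 13.6% of all genes were. MYC, the proliferation factor 316385 bases beyond the end of PCAT1 on the same strand, was at 191 to 216 TPM in si-NT, 128 to 154 TPM at 72 h and 88.9 to 99.8 TPM at 144 h after depletion. On the log2 scale it fell by 0.49 at 72 h (limma adjusted p = 0.0292) and by 1.12 at 144 h (limma adjusted p = 3.9e-05). LRATD2, which starts 2155 bases from the PCAT1 start on the other strand, had log2 fold changes of -0.07 ± 0.12 and -0.06 ± 0.12 (limma adjusted p = 0.844 and 0.747). Distances to neighbours are from the GENCODE v44 limits, and the v19 models that were counted may span less. Whether the counting used strand is not given in the sources used here, so reads in overlapping stretches of opposite genes may not be separated.

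TMEFF2, a membrane protein gene that starts 554912 bases from PCGEM1, was at 13.3 to 19.8 TPM in si-NT and 1.58 to 6.35 TPM in BRG1 depleted libraries. On the log2 scale it fell by 1.49 at 72 h and fell by 2.22 at 144 h (limma adjusted p = 0.0182 and 0.000256). The MYC call at 72 h was lost in 8 and the TMEFF2 call in 4 of 21 alternatives. For MYC these included leaving out 72 h si-NT replicate 1 (0.146) or 2 (0.161), siRNA 2 replicate 1 (0.0631) or 2 (0.0582), siRNA 3 replicate 2 (0.0749) or 144 h si-NT replicate 2 (0.0501), and for TMEFF2 72 h si-NT replicate 2 (0.171) or siRNA 3 replicate 2 (0.0531). Both calls at 144 h held in all 21. PRUNE2, within whose locus PCA3 lies on the opposite strand, was at 194 to 363 TPM across the 12 libraries against at most 0.04 TPM for PCA3, with log2 fold changes of -0.14 ± 0.21 and 0.47 ± 0.21 (limma adjusted p = 0.83 and 0.121). Fitted on the libraries of 144 h alone, PRUNE2 had an adjusted p of 0.0417 at that time.

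GCNT1 (40777 bases from PCA3), CDYL2 (21476 bases from ARLNC1), SLC39A10 (2799076 bases from PCGEM1, with no coding gene between) and RABIF (65809 bases from PCAT6) were the 4 called higher at 144 h, on the log2 scale by 0.77, 0.73, 0.53 and 0.38 (limma adjusted p = 0.0307, 0.0296, 0.0171 and 0.0257). With ERCC scaling 0 of these 4 remained called, but relative to the shifted median their values were 0.70, 0.70, 0.47 and 0.31, and the unshifted value for RABIF was -0.0041. Without 144 h si-NT replicate 2 their adjusted p were 0.377, 0.271, 0.193 and 0.17. GCNT1 and CDYL2 lost their calls in 7 alternatives each, also without siRNA 2 replicate 1 (0.0684 and 0.0666) or 2 (0.0565 and 0.0643), and GCNT1 without siRNA 3 replicate 1 (0.0643). CDYL2 and RABIF lost theirs without si-NT replicate 1 (0.0584 and 0.118), and RABIF without siRNA 2 replicate 2 (0.0501). KDM5B and RPLP1 are named after their values were seen, as the genes closest to PCAT6 and DRAIC. KDM5B, whose start lies 2363 bases from that of PCAT6 on the other strand, had log2 fold changes of 0.33 ± 0.19 and 0.46 ± 0.19 (limma adjusted p = 0.482 and 0.103, and at 144 h 0.042 without 72 h siRNA 2 replicate 2 and 0.0276 on the libraries of 144 h alone), beside the 0.85 of PCAT6 at 144 h. RPLP1, a ribosomal protein gene that ends 6716 bases before the v44 limits of DRAIC, had log2 fold changes of -0.06 ± 0.14 and -0.03 ± 0.14 (limma adjusted p = 0.895 and 0.899). The DRAIC start in the promoter window shown above lies 98799 bases inside those limits.

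**Figure D4:**
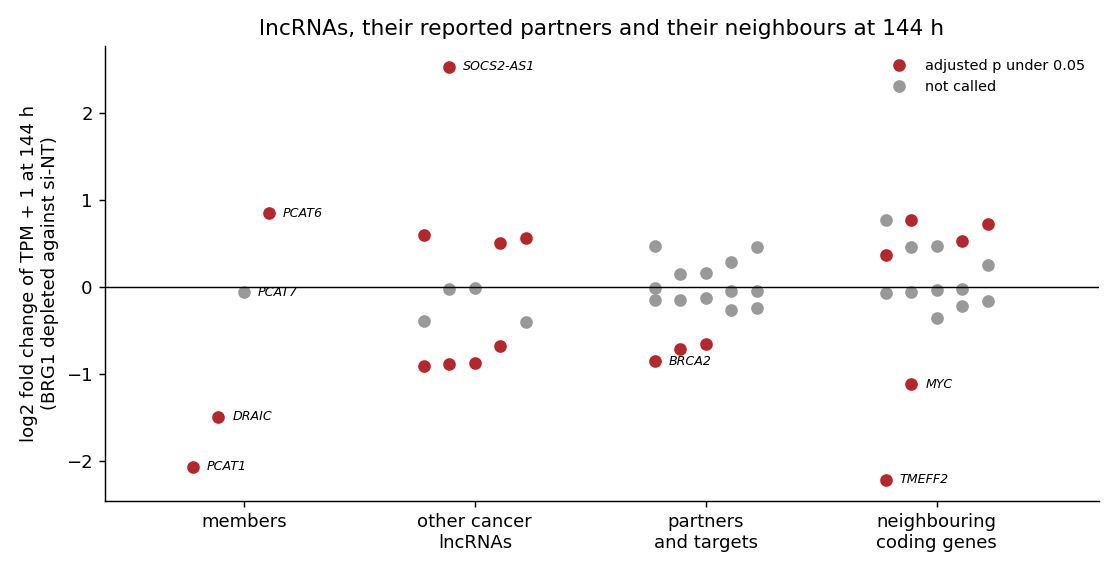
log2 fold change of TPM + 1 at 144 h (BRG1 depleted against si-NT) for each fitted member, other lncRNA, partner or target, and neighbouring gene, in red where the adjusted p was under 0.05 (KDM5B and PRUNE2 are in both of the last lists). PCAT1 and DRAIC lie at -2.06 and -1.49, TMEFF2 at -2.22 and SOCS2-AS1 at 2.54.

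The genes whose pattern over the 12 libraries was most like that of each fitted member were found by the mean absolute difference of standardised log2(TPM + 1), in SD units. For PCAT1 these were CRISP3, LINC01354 and VPS37B, at 0.18, 0.189 and 0.209. For DRAIC they were MYC, TRERF1 and NAP1L1, at 0.136, 0.148 and 0.149, whereas PCAT1 and DRAIC differed from each other by 0.389. For PCAT6 they were DYRK1B, SHFL and ZNF517, at 0.15, 0.173 and 0.189. For PCAT7 the closest were FTLP14, ACBD6 and MAP2K7, at 0.409, 0.414 and 0.421. The 12 points share the same groups, so these values describe likeness and carry no test.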

How the data were processed

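RNA-seq was measured in 12 LNCaP libraries (TruSeq Stranded mRNA, with ERCC spike-ins). According to the methods, the authors mapped reads to hg19/GRCh37 with STAR (2.4.0j in the submitters' processing notes) and counted them with featureCounts on GENCODE v19. They normalised read counts to the ERCC spike-ins for their fold changes, and deposited TPM values per gene. Here the main fit used TPM as given, and ERCC scaling was an alternative. Beyond a log2 fold change of 1.5 at 144 h, the paper reported more genes lower than higher. In the main fit 0.404% were called lower and 0.698% higher beyond this limit at that time. Whether the scaling explains this difference was not tested. The table held 63660 rows, of which 92 were ERCC spike-ins. Symbols came from GENCODE v44 lifted to GRCh37, for 55665 of 63568 genes. As TPM are not counts, no count model was used, and limma 3.58.1 in R 4.3.3 was fitted to log2(TPM + 1) in 4 groups (lmFit, eBayes with trend), keeping genes at 1 TPM or more in 2 or more libraries, and the siRNAs were compared in 6 groups. Fits were tested on simulated data. Exact permutation tests used SciPy 1.17.1. Each si-NT column was matched to its sample, and siRNA columns to their group, because the table and labels number the siRNAs differently and the labels of one 72 h library disagree on the number.

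The 8 members and the gene lists were chosen with earlier results of these data known. Named were all members, listed genes with an adjusted p under 0.05 at either time, and FOXA1, SMARCB1, LRATD2 and PRUNE2 whatever their p. A pair of listed genes is not reported here. Likeness named the 3 closest genes per member. Alternatives were a pseudocount of 0.1, no filter, median-of-ratios or ERCC scaling, a replicate block, the libraries of 1 time, pooled si-NT, no trend, 6 groups and leaving out each library.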

Additional observations from a re-analysis of the deposited data

How the results depend on the processing

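The counts of members called changed as follows. With no filter, with ERCC scaling and with the replicate block, 1 member and not 2 was called lower at 72 h, and with only the libraries of the time point 0 were. Leaving out 1 library at a time gave 1 to 2. Past the log2 limit of 1.5, the count of 1 lower member at 72 h became 0 with only the libraries of the time point and 2 with no fold change limit, and was 0 to 1 when 1 library was left out. The count of 1 lower member past this limit at 144 h became 2 with a pseudocount of 0.1, median-of-ratios scaling, ERCC scaling or no fold change limit, and was 1 to 2 when 1 library was left out. The count of 1 higher member at 144 h became 0 with ERCC scaling and was 0 to 1 when 1 library was left out. With no fold change limit 1 member, against 0, was past the limits as higher at 144 h. The cause of these changes was not tested.

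No clear pairing by replicate number was seen. Deviations of same-numbered libraries had a correlation over 0.1 in only 2 of 15 pairs of groups (range -0.23 to 0.30). With 2 replicates in each group this check is weak, so a pairing is not excluded. With the replicate block DRAIC had an adjusted p of 0.0541 at 72 h.

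Signs turned for small changes. CDYL2 at 72 h was -0.0085 with median-of-ratios and -0.11 with ERCC scaling, and -0.066 to 0.11 when 1 library was left out. With ERCC scaling FOXA1 was -0.029 at 72 h and RABIF -0.0041 at 144 h, but relative to the median of all genes, which this scaling shifts, they were 0.086 and 0.31 and CDYL2 at 72 h was 0. With pooled si-NT FOXA1 was 0.0059 at 144 h. Leaving out 1 library gave ranges across 0 for PCAT7 at 144 h (-0.14 to 0.022), for EZH2 (-0.41 to 0.14), BRCA2 (-0.42 to 0.21), PRUNE2 (-0.50 to 0.23), LRATD2 (-0.16 to 0.015) and RPLP1 (-0.15 to 0.044) at 72 h, and for FOXA1 (-0.053 to 0.045), LRATD2 (-0.13 to 0.0042) and RPLP1 (-0.094 to 0.034) at 144 h. Of 1134 alternative values of single genes, 998 kept their direction and side of the threshold. TPM keep no depth, so the precision of low genes is unknown.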
